A study of Arabidopsis thaliana with 15 samples.

Results

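The comparison set Arabidopsis hypocotyl explants after 4 days on shoot-inducing medium (SIM) at 27 °C against hypocotyl explants frozen at the time of cutting, across every gene of the deposited table. Its members were taken from the sample labels, which gave 6 of the 15 samples, 3 in each group, and 33602 genes. The SIM explants were wild-type Col-0 pieces that had first spent 4 days at 27 °C on callus-inducing medium (CIM), with 0.5 mg/L of the auxin 2,4-D and 0.1 mg/L of the cytokinin kinetin. They then spent 4 days at 27 °C on SIM, with 0.15 mg/L of the auxin IAA and 0.5 mg/L of the cytokinin 2-iP, and both media were kept under continuous light. The reference was wild-type Col-0 hypocotyl at 0 h, cut from seedlings grown for 7 days in darkness at 22 °C, and the SIM explants came from seedlings of the same kind. Each sample pooled about 100 explants, which held hypocotyl only: the pieces were taken from above the junction with the root and from under the junction with the shoot. The other 9 samples, 3 each, were explants on CIM at 27 °C, on CIM at 17 °C and on SIM at 17 °C. Libraries were made with an mRNA kit and sequenced. The groups compared differed in medium, hormones, light, temperature, age and time since cutting, and these differences cannot be told apart in the net change over 8 days of culture.

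In this system, callus formed on a medium rich in auxin is known to resemble the primordium of a lateral root. Transfer to a medium rich in cytokinin then brings out shoot stem cells, marked by the homeodomain protein WUSCHEL, inside a boundary of CUP-SHAPED COTYLEDON transcription factors. A hypocotyl grown in darkness is, at the start, a pale and elongating organ with an epidermis, an endodermis and a vascular strand, living on the reserves of the seed and on supplied sugar.

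The 3 SIM 27 °C libraries held 4319405, 4140425 and 4199922 counts, and the 3 libraries at 0 h held 3661608, 3699289 and 3745747 counts. Levels are given per library as CPM, counts scaled to the library size after TMM scaling and not divided by gene length, so they are compared between samples and not between genes. A gene was called where edgeR's quasi-likelihood test gave a Benjamini-Hochberg adjusted p under 0.05, and "rose" and "fell" are used only of called genes. Changes are log2 fold changes, SIM 27 °C over 0 h, with their standard error (SE). Where a group held 0 counts, the fold is a lower bound set against a floor of 3 counts over that group, and where it held 1 to 3 counts a ratio stands with a 95% interval in brackets for counting error alone. The labels do not say that replicates came from separate cultures, and the p-values therefore describe no more than how these libraries vary. The mean chi-square per gene between pairs of libraries, which is 1 for counting noise alone, was 0.701, 0.787 and 0.863 for SIM 27 °C. At 0 h it was 1.71, 1.23 and 1.57. The SIM 27 °C libraries thus differed by less than counting noise and those at 0 h by more. Whether the SIM 27 °C libraries were independent was not tested. The fit shared 1 estimate of the spread over all groups. Libraries 1 and 3 at 0 h stood apart by transcripts of seed maturation, which summed to 3.58, 3.51 and 2.07 CPM in the SIM 27 °C libraries, against 1415, 12.8 and 934 CPM in libraries 1, 2 and 3 at 0 h. These are bulk samples, so fewer cells of a type and less RNA per cell cannot be told apart.

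The net change reached most of the transcriptome. Of 20704 genes tested, 16231 (78.4%) were called, 7969 (38.5%) higher and 8262 (39.9%) lower on SIM at 27 °C than at 0 h. These shares of all genes are the background for every count of list members that rose or fell in the net change. At a size of 1 log2 unit or more, 3457 genes (16.7%) rose and 3622 (17.5%) fell. Of these, by the fitted fold, 1456 rose and 1918 fell by at least 4-fold, 499 rose and 857 fell by at least 16-fold, and 46 rose and 164 fell by at least 256-fold. The falls were thus more numerous at the largest fitted sizes. For genes with 0 counts in a group, the fitted fold depends on the prior count that the fit adds and is no bound. The numbers at the largest sizes are therefore uncertain. The median change over all genes tested was -0.00, which the scaling centres by design. Tested against a change of 1 log2 unit in place of 0, 5468 genes passed. With library 2 as the only library at 0 h, 14537 genes were called, 3550 of them higher and 3605 lower by 1 log2 unit or more.

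**Figure D1:**
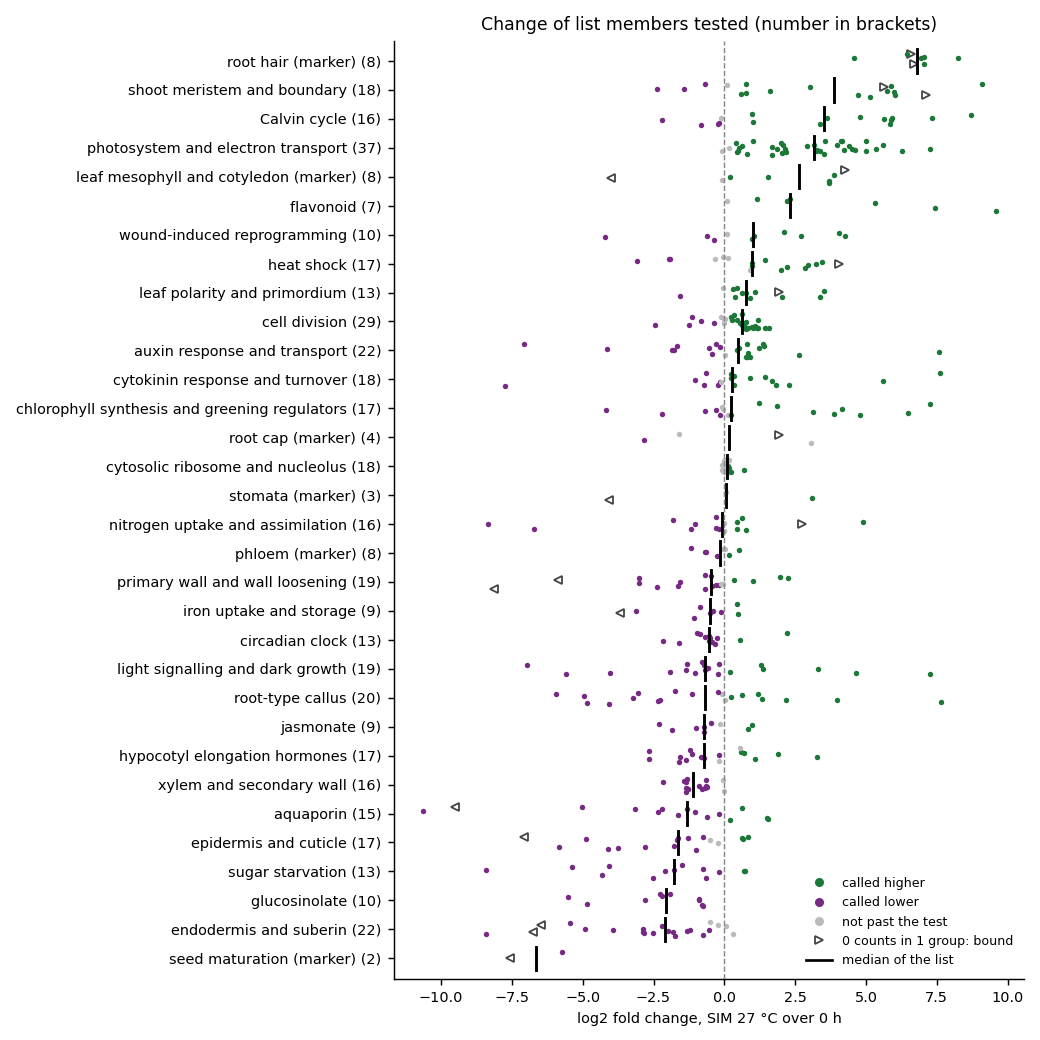
Net log2 fold change, SIM 27 °C over 0 h, of each tested member of the gene lists (1 point per gene, coloured by call and direction; hollow triangles are bounds for genes with 0 counts in a group), with the list median as a black bar. Lists are sorted by median, and the root hair list lies highest, at 6.81 with its genes at their bounds, while the median of all genes tested is -0.00.

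The largest gains were led by genes of the root hair wall. By the rule of the 15 largest fitted changes in each direction, 2 of the rises were extensin-like proteins that no library at 0 h contained, AT4G08410 and AT4G08400, which are structural glycoproteins of the cell wall. AT4G08410 had 100.1, 118 and 84.3 CPM on SIM at 27 °C, against 0, 0 and 0 CPM at 0 h, at least 338-fold higher. AT4G08400 had 71.2, 94.2 and 67.5 CPM on SIM at 27 °C, against 0 CPM in each library at 0 h, at least 260.3-fold higher. The extensin EXT6 (AT2G24980) had 182, 202 and 176 CPM on SIM at 27 °C, against 0.303, 0.298 and 0 CPM at 0 h, a ratio of 941 (260.2 to 7773). In each of these genes every SIM library lay far above every library at 0 h, but the rule that picked them required groups without overlap. Extensin genes hold long repeats whose reads may be shared between copies, so the value of a single copy is uncertain.

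EXPA7 and EXPA18, expansins that loosen the wall of the growing hair, followed the same pattern. EXPA7 had 29.3, 35.1 and 27.2 CPM on SIM at 27 °C, against 0, 0 and 0 CPM at 0 h, at least 103-fold higher. EXPA18 had 28.2, 31.9 and 25.8 CPM on SIM at 27 °C, against 0, 0 and 0 CPM at 0 h, at least 96.1-fold higher. The other rises of this kind were RHS12 (at least 126-fold), PRP1 (at least 124-fold), RHS13 (at least 97.6-fold) and FLA6 (at least 69.4-fold), all listed at 0 counts in the 3 libraries at 0 h. RHS12 and RHS13 are root hair specific genes, PRP1 is a proline-rich wall protein and FLA6 is a fasciclin-like arabinogalactan protein. All 8 tested members of the root hair marker list rose, with a median of 7.04, or 6.81 with the genes at 0 placed at their bound. Their summed level was 333, 389 and 309.6 CPM on SIM at 27 °C, against 3.33, 1.49 and 2.63 CPM at 0 h. Among them, RHD6, the basic helix-loop-helix protein that starts hair formation, had 25.3, 25.5 and 23.0 CPM on SIM at 27 °C, against 0.908, 0.596 and 1.46 CPM at 0 h (log2 change 4.59 ± 0.26 SE, adjusted p = 3.53e-17). RHS19, a peroxidase gene of the root hair set, had 40.8, 49.2 and 38.9 CPM on SIM at 27 °C, against 0.303, 0 and 0.585 CPM at 0 h, a ratio of 144 (49.1 to 701). Neither gene had overlapping groups. The root cap, the other root surface marker list, stayed near 0: its summed level was 1.34, 2.11 and 1.38 CPM on SIM at 27 °C, against 1.21, 0.894 and 2.63 CPM at 0 h.

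The gain in root hair genes came after transfer to SIM. The summed level of the root hair list averaged 2.48 CPM at 0 h, 19.6 CPM on CIM at 27 °C and 344 CPM on SIM at 27 °C, and RHD6 was the member already present on CIM, at 18.4 ± 1.83 CPM (SD, n = 3). All 8 members rose between CIM and SIM at 27 °C, where 24.9% of all genes tested rose and 24.8% fell. Between CIM at 27 °C and 0 h, where 39.5% of all genes rose and 40.4% fell, 1 member rose. Promoter windows of 3 of these genes are shown because the letters TGNNNNCACG or TGNNNNNCACG recur in the group. These letters are a looser pattern than the root hair element known from Arabidopsis, so a match need not be that element. The windows are the 250 bases before the most upstream annotated start, read 5′ to 3′ on the gene's strand from the RefSeq build TAIR10.1, with matches on either strand in capitals. They lie at chr1:4276255-4276504 (EXPA7), chr1:23331313-23331562 (EXPA18) and chr5:26894528-26894777 (RHS19), all on the plus strand.
EXPA7: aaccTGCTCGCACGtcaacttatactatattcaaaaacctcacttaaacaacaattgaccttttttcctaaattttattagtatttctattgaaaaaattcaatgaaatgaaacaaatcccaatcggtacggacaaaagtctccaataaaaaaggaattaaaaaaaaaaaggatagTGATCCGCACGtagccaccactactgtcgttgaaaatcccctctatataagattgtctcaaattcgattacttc
EXPA18: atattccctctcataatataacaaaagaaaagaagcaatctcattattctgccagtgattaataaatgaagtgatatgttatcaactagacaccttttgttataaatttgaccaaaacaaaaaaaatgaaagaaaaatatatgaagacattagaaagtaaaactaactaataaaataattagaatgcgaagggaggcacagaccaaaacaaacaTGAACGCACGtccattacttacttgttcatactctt
RHS19: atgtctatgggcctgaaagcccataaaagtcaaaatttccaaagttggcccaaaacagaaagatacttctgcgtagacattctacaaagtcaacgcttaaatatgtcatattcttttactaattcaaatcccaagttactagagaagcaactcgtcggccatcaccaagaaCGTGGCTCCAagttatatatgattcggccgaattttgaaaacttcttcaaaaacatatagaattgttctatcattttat
EXPA7 held 2 matches, whose first bases lay 246 and 74 bases before the start, EXPA18 held 1 match at 36 bases and RHS19 held 1 match at 79 bases. Of the 8 root hair genes, 6 (75%) had a match, as did 9 of the 14 windows of the largest rises (64.3%) and 3 of the 15 windows of the largest falls (20%). Over all 26706 protein-coding windows the share was 9.07%. The letters were not particular to genes that rose: 6 of 13 clock windows (46.2%) and 2 of 9 iron windows (22.2%) held them. In those lists 11 of 13 and 7 of 9 genes fell. These letters were chosen after the values were seen, the sets of rises and root hair genes share members, and a match is a description, not a site. Among the largest rises, the windows of AT4G08410 and AT4G08400 hold the same sequence, shifted, and EXT6 has the same marked letters. These windows are therefore not separate cases in the share.

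The remaining large rises had other roles. CYP78A5, also called KLUH, is a cytochrome P450 that promotes growth of young organs from the meristem's edge. It had 50.4, 34.2 and 39.6 CPM on SIM at 27 °C, against 0, 0 and 0 CPM at 0 h, at least 139.5-fold higher. HB51, a homeodomain leucine zipper protein of meristem identity, had 21.7, 18.0 and 21.0 CPM on SIM at 27 °C, against 0, 0 and 0 CPM at 0 h, at least 68.1-fold higher. CHS, the entry enzyme of flavonoid synthesis, had 167, 177 and 182 CPM on SIM at 27 °C, against 0, 0.596 and 0 CPM at 0 h, a ratio of 883 (244 to 7298). No library on SIM came near a library at 0 h in any of these genes, but the rule that picked them required groups without overlap. The other rises named by the rule were AT5G52940, a protein of unknown function with a DUF295 domain (at least 112-fold), AT4G16870, an uncharacterized protein (at least 81.7-fold), and AT4G27190, a resistance-type protein with an NB-ARC domain (at least 74.5-fold).

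The largest losses were led by transporters, whose transcripts dropped to 0 counts. SWEET11 and SWEET12, close paralogs that export sucrose from phloem cells, showed the largest bounds. SWEET11 had 0, 0 and 0 CPM on SIM at 27 °C, against 230.2, 238 and 225 CPM at 0 h, at least 1008-fold lower. SWEET12 had 0, 0 and 0 CPM on SIM at 27 °C, against 201, 208 and 195 CPM at 0 h, at least 877-fold lower. The amino acid exporters of the UMAMIT family fell in the same way. UMAMIT17 had 0 CPM in every SIM 27 °C library, against 166, 177 and 161 CPM at 0 h, at least 731-fold lower, and UMAMIT20 was at least 514-fold lower. TIP2;3, a water and ammonia channel of the vacuole membrane, had 0 CPM in every SIM 27 °C library, against 172, 165 and 168 CPM at 0 h, at least 733-fold lower.

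The other large losses had varied annotations. ELP, an extensin-like protein, had 0 CPM in every SIM 27 °C library, against 174, 169 and 161 CPM at 0 h, at least 733-fold lower. ATPMEPCRD, a protein of the pectin methylesterase family, had 0, 0.234 and 0 CPM on SIM at 27 °C, against 426, 427 and 399 CPM at 0 h, a ratio of 5454 (978 to 215475) in favour of 0 h. LUP1, a lupeol synthase of triterpene metabolism, was at least 387-fold lower, the acyltransferase gene AT2G25150 at least 605-fold and the peroxidase gene AT5G19890 at least 506-fold. The transcription factor MYB48 was at least 415-fold lower, AT3G27250 at least 493-fold, AT1G64370 at least 482-fold and the oleosin-like AT5G56100 at least 313-fold. M17, a late embryogenesis abundant protein, belongs with the seed maturation transcripts: it had 0 CPM in every SIM 27 °C library, against 134, 11.3 and 117 CPM in libraries 1, 2 and 3 at 0 h. Its adjusted p was 0.00100 in the fit over all libraries and 0.126 in a fit of the 6 libraries alone. Over all genes tested, 289 had 0 counts in the 3 SIM 27 °C libraries and 201 had 0 counts in the 3 libraries at 0 h.

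**Figure D2:**
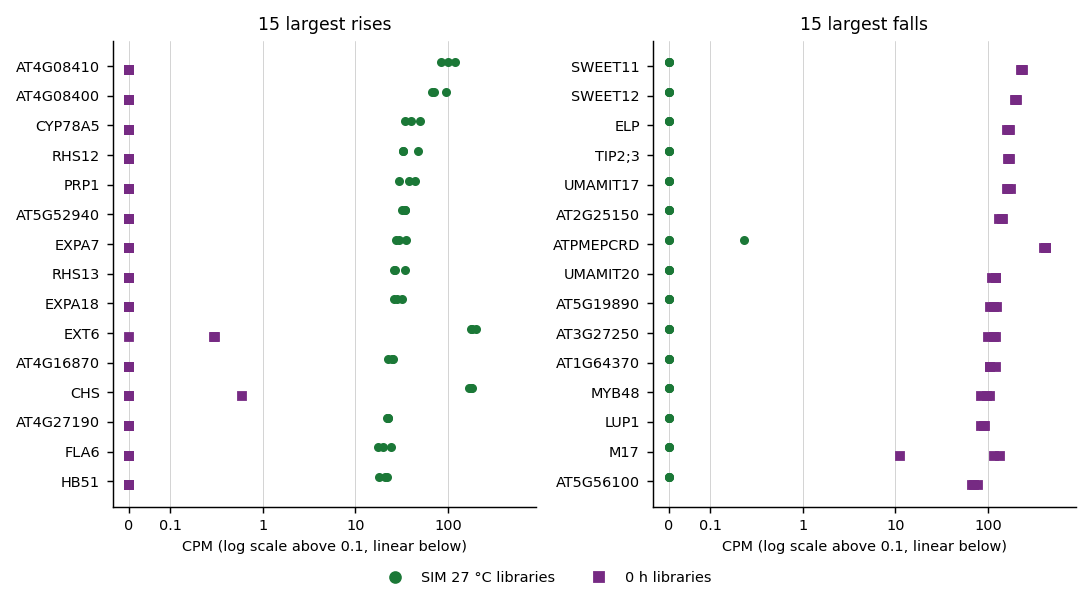
Level in CPM (log scale above 0.1, linear below) of the 15 largest rises and the 15 largest falls, 1 point per library, with SIM 27 °C libraries as circles above the 0 h libraries as squares. The groups overlap in no gene shown, since the rule required it, and M17 has 1 library at 0 h at 11.3 CPM and the others at 134 and 117 CPM.

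Shoot meristem and boundary genes rose together. Of 23 genes on the list, 18 passed the filter on low counts, 14 rose, 3 fell and 1 did not pass the test, with a median change of 3.88. Over all genes, 38.5% rose and the median was -0.00. WUS (AT2G17950), the transcription factor that keeps the shoot stem cells, had 16.6, 12.0 and 15.4 CPM on SIM at 27 °C, against 0, 0 and 0 CPM at 0 h, at least 49.3-fold higher. STM (AT1G62360), the KNOX homeodomain protein that keeps meristem cells from differentiating, had 6.72, 6.33 and 7.60 CPM on SIM at 27 °C, against 0, 0 and 0.293 CPM at 0 h, a ratio of 69.4 (12.1 to 2770.1). Both genes had 0 counts in every library on CIM at 27 °C, and STM had a count in 1 library at 0 h. CLV3, the peptide made by the stem cells themselves, had 2.24, 1.64 and 2.07 CPM on SIM at 27 °C, against 0, 0 and 0 CPM at 0 h, at least 6.68-fold higher. ESR2, an AP2-type factor of shoot regeneration, was at 0 counts at 0 h and at least 6.42-fold higher on SIM at 27 °C. CLV3 and ESR2 did not pass the filter on low counts and were not tested.

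The boundary factors rose as well. CUC1 (AT3G15170) had 35.2, 34.9 and 32.9 CPM on SIM at 27 °C, against 0.606, 0 and 0.878 CPM at 0 h (log2 change 6.03 ± 0.28 SE, adjusted p = 1.79e-19). CUC2 (AT5G53950) had 70.5, 73.6 and 70.7 CPM on SIM at 27 °C, against 0.303, 0 and 0 CPM at 0 h, a ratio of 721 (129 to 28527). These NAC proteins mark the border between organ and meristem, and they differed in timing. CUC2 averaged 0.101 CPM at 0 h, 49.3 ± 3.41 CPM on CIM at 27 °C and 71.6 CPM on SIM at 27 °C, whereas CUC1 averaged 0.494, 3.68 ± 0.581 and 34.3 CPM over the same stages (SD, n = 3). CUC3, the remaining member of the family, had a ratio of 30.4 (8.15 to 256) over 0 h. ESR1, an AP2-type factor that promotes shoot regeneration, had 12.5, 12.7 and 15.2 CPM on SIM at 27 °C, against 0, 0.596 and 0 CPM at 0 h, a ratio of 67.8 (18.5 to 564). LSH4, a boundary protein, had a ratio of 69.9 (23.7 to 341), and RAX1, a MYB factor of axillary meristems, had a ratio of 38.8 (13.0 to 190.2). BLR, a BELL homeodomain partner of the KNOX proteins, had 66.3, 56.7 and 65.2 CPM on SIM at 27 °C, against 6.97, 8.64 and 7.31 CPM at 0 h (log2 change 3.03 ± 0.13 SE).

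Other members of the shoot list were already present in the hypocotyl at 0 h and changed less or fell. ANT, an AP2-type factor of organ growth, had 155, 150.0 and 152 CPM on SIM at 27 °C, against 45.1, 48.8 and 55.3 CPM at 0 h (log2 change 1.61 ± 0.06 SE). The KNOX gene KNAT6 rose by 0.58 ± 0.06, the boundary gene LSH3 by 0.78 ± 0.09 and the GRAS gene LAS by 0.75 ± 0.15. CLV1, the receptor that limits the stem cell zone, had 33.6, 32.6 and 36.9 CPM on SIM at 27 °C, against 86.9, 102 and 88.9 CPM at 0 h (log2 change -1.43 ± 0.07 SE). KNAT1 fell by 0.69 ± 0.04 and HEC1, a basic helix-loop-helix factor, fell by 2.37 ± 0.37. The change of KNAT2 was 0.08 ± 0.14 (adjusted p = 0.623).

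Genes of leaf polarity and primordia shifted with them. Of 13 tested members of 17, 11 rose and 1 fell, with a median of 0.77. ZPR1, a small zipper protein that restrains the HD-ZIP III factors, had 37.6, 34.9 and 33.2 CPM on SIM at 27 °C, against 2.12, 4.17 and 2.93 CPM at 0 h (log2 change 3.51 ± 0.16 SE). GIF1, a growth coactivator of leaves, had 28.4, 24.1 and 22.1 CPM on SIM at 27 °C, against 1.51, 2.68 and 2.93 CPM at 0 h (log2 change 3.37 ± 0.20 SE). PHV, an HD-ZIP III factor of the upper leaf side, rose by 0.91 ± 0.05. KAN1, a factor of the lower leaf side, was the member that fell, with 13.4, 15.2 and 13.1 CPM on SIM at 27 °C, against 46.0, 42.6 and 36.6 CPM at 0 h (log2 change -1.58 ± 0.12 SE).

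Of 20 tested genes of root-type callus, 7 rose and 11 fell, with a median of -0.68, against 38.5% and 39.9% of all genes. WOX11 (AT3G03660), the homeodomain factor that starts adventitious root founder cells, had 92.9, 83.2 and 81.5 CPM on SIM at 27 °C, against 0.908, 0 and 0.293 CPM at 0 h (log2 change 7.65 ± 0.21 SE, adjusted p = 8.64e-24). AIL7, a PLETHORA-type factor, had 79.5, 74.0 and 79.7 CPM on SIM at 27 °C, against 5.45, 5.36 and 4.10 CPM at 0 h (log2 change 3.96 ± 0.13 SE). In both genes the groups were far apart. Its relatives AIL6 and AIL5 rose by 2.18 ± 0.11 and 1.33 ± 0.08. The factors of the root stem cell niche and of ground tissue fell. SCR, which patterns the endodermis, had 27.5, 25.1 and 24.4 CPM on SIM at 27 °C, against 133, 122 and 120.0 CPM at 0 h (log2 change -2.28 ± 0.07 SE, adjusted p = 2.62e-24). JKD, its zinc finger partner, had 12.1, 15.5 and 11.7 CPM on SIM at 27 °C, against 123, 121 and 122 CPM at 0 h (log2 change -3.22 ± 0.07 SE).

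Several of these root regulators had passed through a peak on CIM that the net comparison does not show. WOX5, the factor of the root quiescent centre, averaged 5.27 CPM at 0 h, 52.2 ± 0.884 CPM on CIM at 27 °C and 0.156 CPM on SIM at 27 °C (SD, n = 3). Its net ratio was 34.4 (9.06 to 291) in favour of 0 h. PLT1, which sets root stem cell fate, averaged 2.76 CPM at 0 h, 105 ± 2.78 CPM on CIM and 0.304 CPM on SIM at 27 °C, a net log2 change of -3.06 ± 0.56 (adjusted p = 1.26e-05). LBD29, the auxin-induced factor of callus formation, had 0, 0.469 and 0.230 CPM on SIM at 27 °C, against 15.7, 18.5 and 13.5 CPM at 0 h, a ratio of 69.2 (23.3 to 339) in favour of 0 h. It averaged 16.5 ± 2.16 CPM on CIM, close to its level at 0 h. LBD16, another factor of lateral root initiation, fell by 1.74 ± 0.10, PUCHI, an AP2-type factor of the primordium, by 4.96 ± 0.36, and MGP, a zinc finger target of SHORT-ROOT, by 4.09 ± 0.46. Within the 20 members, 15 rose between 0 h and CIM at 27 °C and 15 fell between CIM and SIM. Of all genes, 39.5% rose in the first step and 24.8% fell in the second. The net calls of PLT2 and WOX12 were lost when some single libraries were left out. PLT2 changed by -1.13 ± 0.45 (adjusted p = 0.0238), and its adjusted p was 0.341 without library 3 at 0 h and 0.0581 to 0.0749 without SIM library 1, SIM library 2 or library 2 at 0 h. WOX12 changed by -2.36 ± 0.82 (adjusted p = 0.0123), and its adjusted p was 0.371 without library 1 at 0 h and 0.0511 without SIM library 1. With library 2 as the only library at 0 h its change was 0.59 (adjusted p = 0.746).

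**Figure D3:**
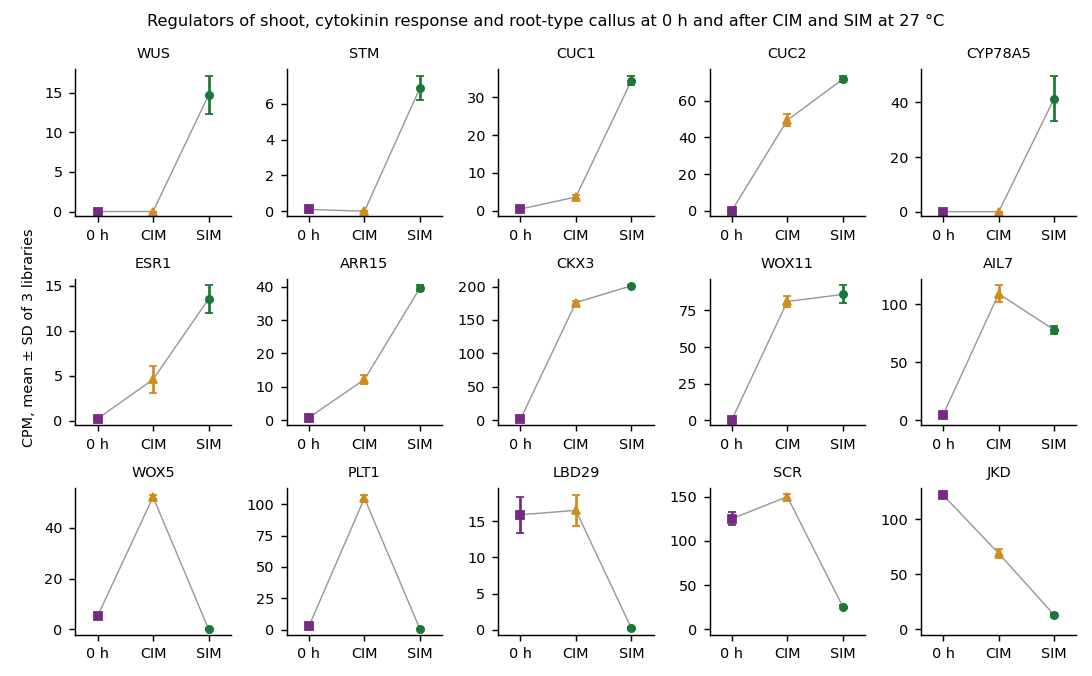
Level in CPM (linear axis of its own for each gene) of 15 regulators and enzymes of shoot identity, cytokinin response and root-type callus at 0 h, on CIM at 27 °C and on SIM at 27 °C, as the mean with error bars of 1 SD over 3 libraries. WUS averages 0, 0 and 14.7 CPM over these stages, while WOX5 and PLT1 peak on CIM at 52.2 and 105 CPM.

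Of 18 tested cytokinin genes on a list of 21, 11 rose and 6 fell, with a median of 0.27, where 38.5% of all genes rose and 39.9% fell, so the share that fell was near that of all genes. ARR15, a type-A response regulator that dampens cytokinin signalling, had 40.3, 39.8 and 38.7 CPM on SIM at 27 °C, against 0.908, 0.894 and 0.585 CPM at 0 h (log2 change 5.59 ± 0.19 SE, adjusted p = 4.11e-23). CKX3, an oxidase that degrades cytokinin, had 201, 202 and 201 CPM on SIM at 27 °C, against 0.303, 1.79 and 0.878 CPM at 0 h (log2 change 7.62 ± 0.16 SE). Both genes had SIM libraries that lay close together and far above 0 h. ARR7, a close relative of ARR15, had 62.0, 60.5 and 62.9 CPM on SIM at 27 °C, against 17.6, 16.4 and 23.7 CPM at 0 h (log2 change 1.68 ± 0.09 SE). CKX7, CRF2, a cytokinin response factor, and CKX5 rose by 1.84 ± 0.14, 1.44 ± 0.11 and 0.90 ± 0.07. IPT3, the enzyme that makes cytokinin in the phloem in response to nitrate, had 0, 0.937 and 0.230 CPM on SIM at 27 °C, against 89.6, 92.3 and 84.8 CPM at 0 h (log2 change -7.75 ± 0.57 SE, adjusted p = 1.48e-07). AHK3, a cytokinin receptor, had 153, 151 and 155 CPM on SIM at 27 °C, against 328, 312 and 309 CPM at 0 h (log2 change -1.05 ± 0.04 SE), while the receptor WOL rose by 0.33 ± 0.04. ARR5, the most used cytokinin reporter gene, had 80.6, 86.5 and 81.1 CPM on SIM at 27 °C, against 89.0, 93.8 and 95.4 CPM at 0 h. Its change of -0.17 ± 0.05 passed (adjusted p = 0.0137), but the adjusted p was 0.0506 to 0.0933 without SIM library 1, SIM library 3, or library 2 or 3 at 0 h. Small changes of ARR3 (-0.65 ± 0.21), ARR6 (-0.24 ± 0.06) and CRF5 (0.22 ± 0.07) likewise lost their call, ARR3 without library 1, ARR6 without library 3 and CRF5 without library 2 at 0 h.

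Of 22 tested auxin genes, 12 rose and 9 fell, with a median of 0.48, and here too the share that fell was near the 39.9% of all genes. YUC4, an enzyme of auxin synthesis in young organs, had 23.5, 24.1 and 26.3 CPM on SIM at 27 °C, against 0, 0.298 and 0 CPM at 0 h, a ratio of 248 (44.2 to 9833). DFL1, a GH3 enzyme that conjugates auxin, had 231, 232 and 242 CPM on SIM at 27 °C, against 104, 102 and 96.0 CPM at 0 h (log2 change 1.22 ± 0.05 SE). The uptake carrier LAX3 went the other way, with 37.6, 41.0 and 35.7 CPM on SIM at 27 °C, against 136, 144 and 135 CPM at 0 h (log2 change -1.86 ± 0.06 SE). IAA3, a repressor of auxin response, had 34.7, 32.6 and 33.9 CPM on SIM at 27 °C, against 104, 112 and 103 CPM at 0 h (log2 change -1.66 ± 0.06 SE). Of 10 wound-induced reprogramming genes, 6 rose and 3 fell, where 38.5% of all genes rose and 39.9% fell. NAC071, a factor of tissue reunion, had 69.9, 69.4 and 63.3 CPM on SIM at 27 °C, against 1.82, 4.47 and 4.10 CPM at 0 h (log2 change 4.27 ± 0.14 SE). The AP2-type genes WIND3 and RAP2.6L rose by 1.05 ± 0.06 and 0.99 ± 0.05, whereas RAP2.6 fell by 4.20 ± 0.33.

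Genes of the photosynthetic apparatus rose almost without exception. Of 37 genes of the photosystems and electron transport, all tested, 35 rose, none fell, and LHCB4.2 and LHCA4 did not pass (0.15 ± 0.13, adjusted p = 0.313, and -0.09 ± 0.07, adjusted p = 0.229). The median was 3.18. Their summed level was 1857, 1828 and 1926 CPM on SIM at 27 °C, against 523, 560.2 and 573 CPM at 0 h. PETE2, the copper protein plastocyanin, had 70.3, 66.5 and 74.9 CPM on SIM at 27 °C, against 0.908, 0.596 and 1.17 CPM at 0 h (log2 change 6.26 ± 0.21 SE, adjusted p = 1.67e-21). LHCA1, an antenna protein of photosystem I, had 51.1, 52.0 and 53.7 CPM on SIM at 27 °C, against 5.45, 2.68 and 5.27 CPM at 0 h (log2 change 3.54 ± 0.15 SE, adjusted p = 6.62e-21). Groups did not overlap in either gene. PSAG, a subunit of photosystem I, had 50.8, 47.8 and 52.1 CPM on SIM at 27 °C, against 0.303, 0.298 and 0.293 CPM at 0 h, a ratio of 169 (57.5 to 821). PSBY, of photosystem II, rose by 5.34 ± 0.17. The antenna and RBCS families hold near-identical copies, so their members are uncertain one by one. Folds of abundant short genes may be compressed, since apart from a single gene no count exceeded 1.09 per base of gene span.

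The promoter windows of PETE2 and LHCA1 are shown for GATAAG, the I-box of light-regulated genes, and that of CHS for CACGTG, the G-box, which bZIP and basic helix-loop-helix factors bind. They lie at chr1:7043393-7043642 (PETE2, minus strand), chr3:20341177-20341426 (LHCA1, minus strand) and chr5:4488226-4488475 (CHS, plus strand) in TAIR10.1, read from RefSeq as described for the root hair genes, with matches on either strand in capitals.
PETE2: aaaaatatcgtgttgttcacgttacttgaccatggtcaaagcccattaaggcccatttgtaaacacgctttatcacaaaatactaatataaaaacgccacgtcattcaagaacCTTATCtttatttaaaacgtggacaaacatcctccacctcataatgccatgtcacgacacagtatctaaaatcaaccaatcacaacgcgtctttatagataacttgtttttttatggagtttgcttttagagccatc
LHCA1: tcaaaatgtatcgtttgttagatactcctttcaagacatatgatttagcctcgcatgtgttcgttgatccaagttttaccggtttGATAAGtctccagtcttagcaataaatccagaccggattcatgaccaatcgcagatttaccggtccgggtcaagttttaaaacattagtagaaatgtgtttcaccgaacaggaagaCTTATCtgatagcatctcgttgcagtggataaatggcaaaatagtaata
CHS: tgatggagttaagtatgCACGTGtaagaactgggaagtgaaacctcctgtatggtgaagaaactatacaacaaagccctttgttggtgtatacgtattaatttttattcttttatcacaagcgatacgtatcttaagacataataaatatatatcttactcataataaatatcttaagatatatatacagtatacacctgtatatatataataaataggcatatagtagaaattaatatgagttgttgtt
PETE2 held 1 GATAAG at 137 bases before the start, LHCA1 held 2 at 165 and 49 bases, and CHS held 1 CACGTG at 233 bases. GATAAG was found in 11 of 37 windows of the photosystem list (29.7%) and in 3 of 16 of the Calvin cycle list (18.8%), against 12.3% of all windows. It was not particular to these lists: it was in 5 of 16 nitrogen (31.2%), 4 of 13 sugar starvation (30.8%) and 3 of 9 jasmonate windows (33.3%). Of 17 chlorophyll and greening windows, 1 held it (5.88%). CACGTG was found in 6 of 37 photosystem windows (16.2%), 3 of 7 flavonoid windows (42.9%) and 5 of 13 clock windows (38.5%), against 6.58% of all windows. It was also in 3 of 9 iron windows (33.3%) and 3 of 17 heat shock windows (17.6%). These shares are descriptions of short windows, and a window without a match says only that the letters are not in it.

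The summed level of photosystem genes was no higher on CIM at 27 °C than at 0 h. Between 0 h and CIM at 27 °C 15 photosystem genes rose and 12 fell, where 39.5% of all genes rose and 40.4% fell. Between CIM and SIM all 37 rose, where 24.9% of all genes rose and 24.8% fell. The summed level averaged 552 CPM at 0 h, 482 CPM on CIM and 1871 CPM on SIM at 27 °C. Calvin cycle genes rose in 11 of 16 tested cases and fell in 4, with a median of 3.51. FBA1, a plastid aldolase, had 52.4, 48.0 and 59.7 CPM on SIM at 27 °C, against 0.908, 0 and 0 CPM at 0 h, a ratio of 179 (61.1 to 872). The linker proteins CP12-1 and CP12-2, which hold enzymes of the cycle inactive in darkness, were among those that fell, by 0.81 ± 0.07 and 2.20 ± 0.19. Of 17 tested genes of chlorophyll synthesis and greening, 9 rose and 5 fell, with a median of 0.22, against 38.5% and 39.9% of all genes. PORB, a light-dependent protochlorophyllide reductase, had 60.0, 59.5 and 61.5 CPM on SIM at 27 °C, against 3.94, 3.87 and 2.34 CPM at 0 h (log2 change 4.15 ± 0.15 SE). CHLG, chlorophyll synthase, rose by 4.79 ± 0.24 and CHLI1, a subunit of magnesium chelatase, by 1.87 ± 0.08. PORA, the reductase of dark-grown seedlings, had 0.224, 0 and 0.230 CPM on SIM at 27 °C, against 3.33, 3.28 and 3.22 CPM at 0 h, a ratio of 21.4 (5.47 to 184) in favour of 0 h. GLK2, a greening regulator, had 10.1, 11.0 and 8.52 CPM on SIM at 27 °C, against 46.9, 46.2 and 44.5 CPM at 0 h (log2 change -2.21 ± 0.13 SE). Of 8 mesophyll markers, 6 rose and 1 fell. Fitted changes on the list ran from -6.89 to 7.51, and 1 gene had 0 counts on SIM at 27 °C. GDCH of photorespiration rose by 3.68 ± 0.17. The summed level of the list was 367, 364 and 398 CPM on SIM at 27 °C, against 241, 239 and 231 CPM at 0 h. CAB3, an antenna gene on that list, was at 0 counts in each library at 0 h. The part of leaf cells in the greening genes was not tested. The stomatal list summed to 61.4, 58.3 and 63.6 CPM on SIM at 27 °C, against 63.3, 55.1 and 60.9 CPM at 0 h, and these ranges overlapped.

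Most genes of light signalling and growth in darkness fell. Of 19 tested light signalling and dark growth genes, 6 rose and 13 fell, with a median of -0.68. HFR1, a basic helix-loop-helix factor that curbs elongation, had 1.34, 0.703 and 1.15 CPM on SIM at 27 °C, against 139, 138 and 139.9 CPM at 0 h (log2 change -6.98 ± 0.14 SE, adjusted p = 1.01e-29). PIF4, the phytochrome-interacting factor of warm and shaded growth, had 0.448, 0.937 and 1.61 CPM on SIM at 27 °C, against 43.6, 50.3 and 55.3 CPM at 0 h (log2 change -5.60 ± 0.25 SE). ELIP1, an early light-induced chlorophyll-binding protein, had 35.8, 35.4 and 33.6 CPM on SIM at 27 °C, against 0.303, 0.298 and 0 CPM at 0 h, a ratio of 176 (48.5 to 1459). SPA1, a repressor of light signalling, rose by 1.28 ± 0.06. Hormone genes of hypocotyl elongation rose in 5 of 17 tested cases and fell in 10, with a median of -0.73, against 38.5% and 39.9% of all genes. The brassinosteroid synthesis gene BR6OX2 had 31.1, 21.8 and 21.4 CPM on SIM at 27 °C, against 167, 165 and 145 CPM at 0 h (log2 change -2.67 ± 0.08 SE). CPD, an earlier enzyme of that route, fell by 1.16 ± 0.05, BRI1, the brassinosteroid receptor, by 1.34 ± 0.04, and IBH1, a repressor of cell elongation, by 2.65 ± 0.07.

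Of 7 tested flavonoid genes, 6 rose and none fell, with a median of 2.33. Their summed level was 414, 445 and 454 CPM on SIM at 27 °C, against 60.3, 41.4 and 43.9 CPM at 0 h. FLS1, flavonol synthase, had 52.6, 58.1 and 60.6 CPM on SIM at 27 °C, against 0.606, 0 and 0.293 CPM at 0 h, a ratio of 192 (65.3 to 932). UGT78D2, which adds glucose to flavonols and anthocyanins, rose by 2.33 ± 0.08 and MYB12, the MYB factor that switches on flavonol synthesis, by 2.22 ± 0.17. Genes of the anthocyanin branch had no counts to set beside them: DFR, LDOX, UF3GT, PAP1 and TT8 were at 0 counts on SIM at 27 °C and did not pass the filter.

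**Figure D4:**
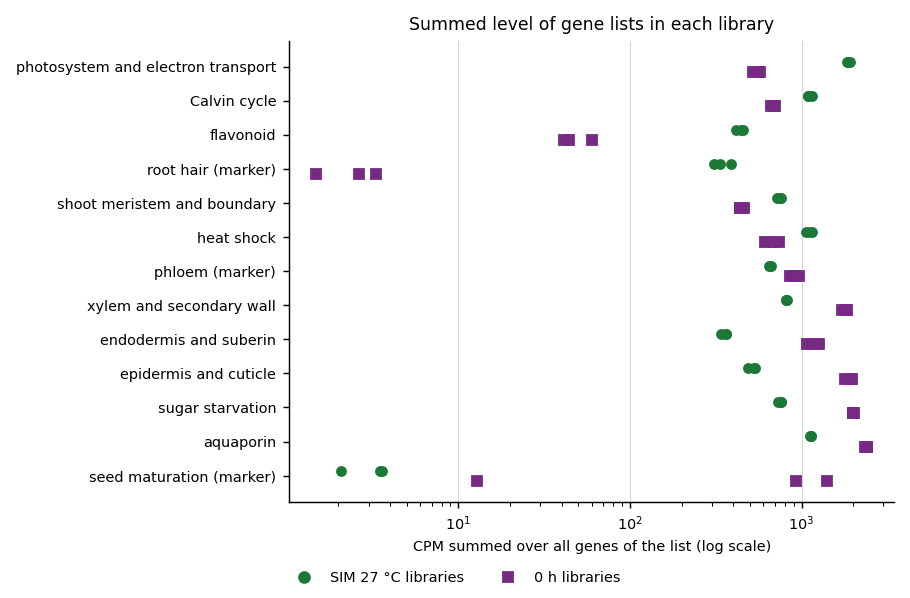
Level in CPM summed over the genes of a list (log axis), 1 point per library, with SIM 27 °C libraries as circles above the 0 h libraries as squares. Photosystem sums lie between 1828 and 1926 CPM on SIM at 27 °C, against 523 to 573 CPM at 0 h, and epidermis sums between 490.4 and 534 CPM, against 1796 to 1969.6 CPM.

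Tissue genes of the mature hypocotyl mostly fell, with phloem markers mixed, beginning here with the outer layer. Of 17 tested epidermis and cuticle genes, 3 rose and 12 fell, with a median of -1.62, and their summed level was 525, 490.4 and 534 CPM on SIM at 27 °C, against 1969.6, 1947 and 1796 CPM at 0 h. ATML1, the homeodomain factor that sets epidermal identity, had 3.14, 2.34 and 1.15 CPM on SIM at 27 °C, against 71.8, 65.2 and 63.2 CPM at 0 h (log2 change -4.89 ± 0.15 SE). Its paralog PDF2 had 7.84, 7.50 and 4.38 CPM on SIM at 27 °C, against 85.4, 89.1 and 94.8 CPM at 0 h (log2 change -3.76 ± 0.10 SE). CUT1, which lengthens fatty acids for wax, had 19.0, 21.1 and 25.1 CPM on SIM at 27 °C, against 384, 379 and 359.9 CPM at 0 h (log2 change -4.11 ± 0.07 SE). ABCG12, a wax exporter, fell by 2.81 ± 0.06. All these genes had the 3 SIM libraries under every library at 0 h. Most of the loss in the sum came between CIM and SIM. The sum averaged 1904 CPM at 0 h, 1559 CPM on CIM and 516 CPM on SIM at 27 °C. Between 0 h and CIM at 27 °C, 7 of the 17 genes rose and 8 fell, near the 39.5% and 40.4% of all genes. Between CIM and SIM none rose and 14 fell, where 24.9% of all genes rose and 24.8% fell.

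Of 22 endodermis and suberin genes, none rose and 18 fell, with a median of -2.09, and the sum was 338, 364 and 364 CPM on SIM at 27 °C, against 1171, 1271 and 1080.2 CPM at 0 h. Without library 2 at 0 h, 1 gene of this list rose. Between 0 h and CIM at 27 °C, 2 of the 22 rose and 20 fell, where 39.5% of all genes rose and 40.4% fell. Between CIM and SIM 8 rose and 4 fell, where 24.9% of all genes rose and 24.8% fell. GSO1, the receptor that seals the Casparian strip, had 2.91, 3.75 and 2.99 CPM on SIM at 27 °C, against 93.9, 106 and 96.0 CPM at 0 h (log2 change -4.93 ± 0.13 SE). MYB36, the master factor of the strip, had 11.9, 12.0 and 13.1 CPM on SIM at 27 °C, against 48.8, 47.1 and 52.1 CPM at 0 h (log2 change -2.00 ± 0.10 SE). ASFT, which adds ferulate to suberin, fell by 2.53 ± 0.11 and the wax and suberin elongase KCS20 by 1.22 ± 0.05. Xylem and secondary wall genes fell in 14 of 16 tested cases and rose in none, with a median of -1.09. IRX1, a cellulose synthase of the secondary wall, had 62.7, 66.8 and 65.2 CPM on SIM at 27 °C, against 172, 169 and 158 CPM at 0 h (log2 change -1.36 ± 0.05 SE). The laccases IRX12 and LAC17, which polymerise lignin, fell by 1.44 ± 0.05 and 1.29 ± 0.04, and FLA11, a fasciclin-like protein of fibres, by 2.17 ± 0.08. VND6 and VND7, the NAC factors that switch on vessel formation, did not pass (-0.06, adjusted p = 0.726, and 0.00, adjusted p = 0.999). Xylem genes were lower still on CIM: 16 of 16 fell between 0 h and CIM at 27 °C, and 14 rose between CIM and SIM. Of all genes, 40.4% fell in the first step and 24.9% rose in the second. Of the phloem markers, 2 of 8 were higher and 4 lower, not far from the 38.5% and 39.9% of all genes. Their sum was 662, 642 and 651 CPM on SIM at 27 °C, against 858, 898 and 969.6 CPM at 0 h. The number higher was 1 without SIM library 3, without library 1 at 0 h, with DESeq2 or with library 2 as the only library at 0 h. SUC2, the sucrose loader of companion cells, rose by 0.17 ± 0.05 (adjusted p = 0.00114), and SEOR2, a sieve element protein, fell by 1.19 ± 0.06.

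Genes of the primary wall fell more often than they rose, in 13 against 4 of 19 tested cases, with a median of -0.46. Of all genes, 39.9% fell and 38.5% rose. XTH15, a xyloglucan-modifying enzyme of elongation, had 6.94, 6.56 and 5.76 CPM on SIM at 27 °C, against 50.0, 53.9 and 52.1 CPM at 0 h (log2 change -3.01 ± 0.13 SE). XTH24 fell by 2.39 ± 0.06 and KOR1, an endoglucanase of cellulose synthesis, by 0.70 ± 0.03. EXPA1, an expansin of leaf and stem cells, had 207, 215 and 211 CPM on SIM at 27 °C, against 46.3, 57.5 and 60.3 CPM at 0 h (log2 change 1.95 ± 0.06 SE). Among the genes with the most counts at 0 h, BXL1, a xylosidase of the cell wall, had 57.1, 56.7 and 67.5 CPM on SIM at 27 °C, against 686, 684 and 676 CPM at 0 h (log2 change -3.50 ± 0.09 SE).

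Sugar starvation genes fell in 11 of 13 tested cases and rose in 2, with a median of -1.77, and the sum was 731, 763 and 759.7 CPM on SIM at 27 °C, against 1998, 1989.6 and 2019 CPM at 0 h. DIN1, a dark-induced gene of senescence, had 0.224, 0.703 and 0.230 CPM on SIM at 27 °C, against 142, 140.0 and 139 CPM at 0 h (log2 change -8.41 ± 0.14 SE, adjusted p = 4.08e-31). TPS8, a trehalose phosphate synthase family protein, had 44.6, 53.2 and 56.9 CPM on SIM at 27 °C, against 295, 295 and 295 CPM at 0 h (log2 change -2.52 ± 0.05 SE). DIN10, a raffinose synthase family protein, fell by 1.51 ± 0.04 and MCCA, a subunit of leucine breakdown, by 1.77 ± 0.04. Of 16 nitrogen genes, 6 rose and 8 fell, with a median of -0.10, not far from the 38.5% and 39.9% of all genes. The steepest fall was that of NRT1.5, which loads nitrate into the xylem, with 1.57, 0.469 and 1.15 CPM on SIM at 27 °C, against 365, 375 and 339 CPM at 0 h (log2 change -8.35 ± 0.16 SE). The nitrate transporter and sensor NRT1.1 fell by 1.81 ± 0.07, and the glutamate dehydrogenases GDH1 and GDH2 by 1.18 ± 0.06 and 1.03 ± 0.04. GLT1, the NADH-dependent glutamate synthase and one of the genes with the most counts in both groups, changed by -0.02 ± 0.03 (adjusted p = 0.587).

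Aquaporins fell in 11 of 15 cases and rose in 4, with a median of -1.33 and a sum of 1131, 1137 and 1120.2 CPM on SIM at 27 °C, against 2394, 2402 and 2344 CPM at 0 h. PIP2B, a water channel of the plasma membrane, had 6.49, 8.90 and 6.68 CPM on SIM at 27 °C, against 247, 239 and 233 CPM at 0 h (log2 change -5.02 ± 0.07 SE). TIP2;2, a vacuolar channel close to TIP2;3, had 0, 0.234 and 0 CPM on SIM at 27 °C, against 171, 177 and 170.3 CPM at 0 h, a ratio of 2257 (405 to 89213) in favour of 0 h. All 10 tested glucosinolate genes fell, with a median of -2.06. CYP79B3, the first enzyme of indole glucosinolates, had 57.3, 49.0 and 61.5 CPM on SIM at 27 °C, against 205, 209 and 221 CPM at 0 h (log2 change -1.92 ± 0.07 SE), and MYB51, their regulator, fell by 2.20 ± 0.09. Jasmonate genes fell in 6 of 9 cases and rose in 2, or in 1 without SIM library 1, without library 1 or 2 at 0 h, or with the 6 libraries alone. Of all genes, 39.9% fell and 38.5% rose. MYC2, the main factor of jasmonate response, had 58.2, 48.3 and 49.3 CPM on SIM at 27 °C, against 250.1, 248 and 268 CPM at 0 h (log2 change -2.30 ± 0.05 SE), and AOS, an enzyme of its synthesis, fell by 1.84 ± 0.06. VSP2, a storage protein often used as a jasmonate marker, rose by 0.98 ± 0.08, while its tandem copy VSP1 fell by 0.72 ± 0.06. Iron genes rose in 2 of 9 tested cases and fell in 7. Among those that fell were NAS1, a nicotianamine synthase, by 3.12 ± 0.27 and FER1, a ferritin that stores iron, by 0.40 ± 0.05.

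Genes of cell division rose in 20 of 29 cases and fell in 5, with a median of 0.61. MCM2, a helicase subunit of DNA replication, had 114, 112 and 119 CPM on SIM at 27 °C, against 54.2, 46.2 and 50.6 CPM at 0 h (log2 change 1.19 ± 0.06 SE), and MCM3 and MCM4 rose by 1.16 ± 0.06 and 1.17 ± 0.06. SIAMESE (AT5G04470), an inhibitor that turns division into endoreduplication, had 43.2, 39.6 and 41.9 CPM on SIM at 27 °C, against 104, 102 and 93.3 CPM at 0 h (log2 change -1.26 ± 0.07 SE). Of 18 genes of cytosolic ribosomes and the nucleolus, 5 rose and none fell, with a median of 0.08. FIB2, a nucleolar fibrillarin, led with 0.71 ± 0.06. This count was 3 with DESeq2 or with library 2 as the only library at 0 h, and 9 with counts corrected for positions counted once, and 1 gene fell without SIM library 2.

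Heat shock genes rose in 10 of 17 tested cases and fell in 3, against 38.5% and 39.9% of all genes. Their median was 0.96, with a sum of 1100.5, 1146 and 1064 CPM on SIM at 27 °C, against 683, 734 and 614 CPM at 0 h. The sum averaged 677 CPM at 0 h, 1343 CPM on CIM and 1103 CPM on SIM at 27 °C. Between 0 h and CIM, 12 of the 17 rose and 4 fell, where 39.5% of all genes rose and 40.4% fell. Between CIM and SIM 1 rose and 11 fell, where 24.9% of all genes rose and 24.8% fell. HSP90.1, a heat-inducible chaperone, had 223, 235 and 212 CPM on SIM at 27 °C, against 41.2, 53.6 and 49.4 CPM at 0 h (log2 change 2.21 ± 0.07 SE). HSP101, which dissolves protein aggregates, had 112, 109.9 and 113 CPM on SIM at 27 °C, against 38.8, 50.0 and 36.0 CPM at 0 h (log2 change 1.42 ± 0.07 SE). The small heat shock gene HSP17.8 rose by 3.45 ± 0.19, and the heat shock factor gene HSFA7A fell by 1.97 ± 0.08. Clock genes fell in 11 of 13 cases and rose in 2, with a median of -0.54. PRR7, a morning repressor, had 73.2, 67.0 and 63.6 CPM on SIM at 27 °C, against 206, 202 and 207 CPM at 0 h (log2 change -1.59 ± 0.05 SE), and the dawn factor CCA1 fell by 0.98 ± 0.05. ELF4, of the evening complex, had 40.3, 43.3 and 42.2 CPM on SIM at 27 °C, against 7.27, 9.23 and 10.5 CPM at 0 h (log2 change 2.21 ± 0.11 SE). The hour of sampling was not given, so its part in the clock genes was not tested.

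A further group of genes changed on CIM and returned, so the net comparison passes over them. By the rule of at least 1 log2 unit called in each step and a 95% interval of the net change within 0.5 of 0, 107 genes made such a round trip, 22 up then down and 85 down then up. With the interval within 1 of 0 the number was 332, and with library 2 as the only library at 0 h it was 62. The lateral root factor LBD18 averaged 12.5 ± 2.21 CPM at 0 h, 79.1 ± 1.99 CPM on CIM and 11.6 ± 1.17 CPM on SIM at 27 °C (SD, n = 3). AT5G56220 averaged 20.1 CPM at 0 h, 103 ± 7.37 CPM on CIM and 19.9 CPM on SIM, and AT4G20860 averaged 28.8, 121 ± 12.1 and 29.7 CPM. The purple acid phosphatase gene PAP29 averaged 12.1, 55.4 and 13.8 CPM, and ASG8 averaged 6.47, 25.1 and 6.41 CPM. All 5 were high on CIM only. In the other direction, AT5G11420 averaged 48.4 CPM at 0 h, 1.15 CPM on CIM and 52.0 CPM on SIM at 27 °C, and AT5G37990 averaged 73.2 ± 22.0, 1.37 and 74.1 CPM. AT5G43180 averaged 11.8, 0.799 and 12.2 CPM, AT5G44530 averaged 21.4, 1.95 and 19.2 CPM, and AT3G16180 averaged 39.1, 3.82 and 34.0 CPM.

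**Figure D5:**
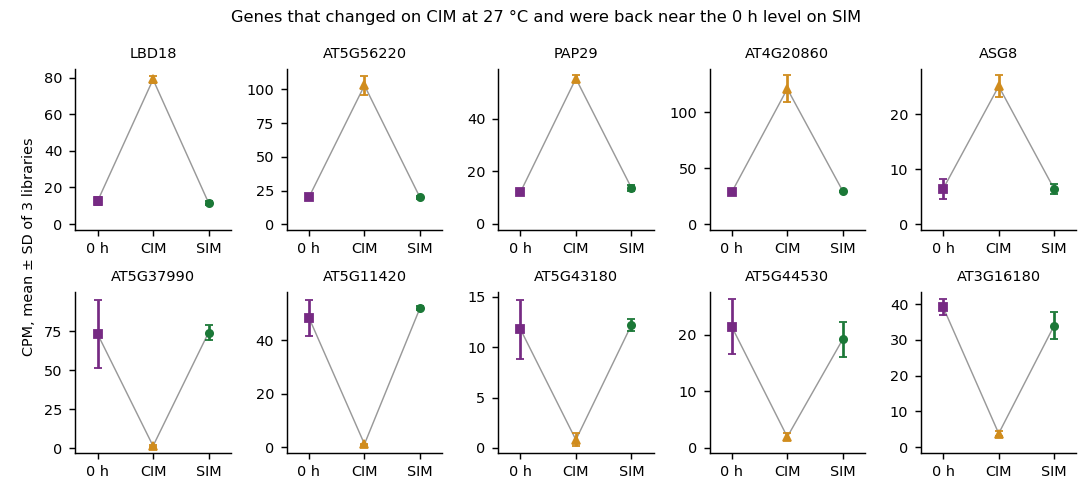
Level in CPM (linear axis of its own for each gene) at 0 h, on CIM at 27 °C and on SIM at 27 °C of the 10 genes named for passing changes, as the mean with error bars of 1 SD over 3 libraries. The upper 5 peak on CIM, LBD18 at 79.1 CPM, and the lower 5 dip there, AT5G11420 to 1.15 CPM.

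SIM explants kept at 17 °C allowed a direct test of where the outcome depended on the culture temperature, with no library at 0 h in it. Against SIM at 17 °C, 20.7% of genes tested were higher and 22.9% lower on SIM at 27 °C. Shoot meristem genes were higher in 11 of 18 cases and lower in 2. WUS averaged 14.7 CPM on SIM at 27 °C, against 5.30 ± 0.658 CPM on SIM at 17 °C (log2 change 1.46, adjusted p = 2.72e-06), and CUC1 averaged 34.3 CPM, against 5.24 ± 0.990 CPM (log2 change 2.70, adjusted p = 2.80e-15). STM averaged 6.88 CPM on SIM at 27 °C, against 0.0902 ± 0.156 CPM at 17 °C, and CYP78A5 averaged 41.4 CPM on SIM at 27 °C, against 0.732 ± 0.400 CPM at 17 °C. Photosystem genes were higher at 27 °C in 31 of 37 cases and lower in none, and heat shock genes were higher in 12 of 17 and lower in 1. Root-type callus genes were lower in 10 of 20 cases and higher in 3, all 7 flavonoid genes were lower, and endodermis and suberin genes were lower in 21 of 22. FLS1, for example, averaged 57.1 CPM on SIM at 27 °C, against 106 ± 1.38 CPM at 17 °C (log2 change -0.89, adjusted p = 9.05e-15). Root hair genes were higher at 27 °C in 5 of 8 cases and lower in none, with a median of 0.44 and a sum of 344 ± 41.0 CPM on SIM at 27 °C, against 245 ± 37.9 CPM at 17 °C (SD, n = 3). The extensin-like AT4G08410 at the head of the gains averaged 101 CPM on SIM at 27 °C, against 95.6 ± 16.5 CPM at 17 °C, and the difference did not pass the test (log2 change 0.08 ± 0.17 SE, adjusted p = 0.752). SWEET11 averaged 0 CPM on SIM at 27 °C, against 0.0902 ± 0.156 CPM at 17 °C, and SWEET12 and TIP2;3 had 0 counts at both temperatures.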

How the data were processed

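The deposited table held raw read counts per gene made by the authors, with no normalization; per the submitters' processing notes, FastQC 0.11.7, Bowtie2 2.3.4.3, SAMtools 1.9, bedtools 2.26.0 and the build TAIR10 were used. The libraries were made with a stranded mRNA kit, per the labels' protocols; strand use in counting, handling of duplicates and treatment of introns are not given in the sources used here, so a gene and an antisense partner may not be told apart. In the 6 libraries compared, 3 genes exceeded 1 count per base of gene span and 166 exceeded 0.5, so positions may have been counted once. The 279 organelle genes had 0 counts.

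All 15 libraries in 5 groups were fitted with edgeR 4.0.16 in R 4.3.3 (filterByExpr by group, TMM scaling, robust quasi-likelihood fit), and p-values were Benjamini-Hochberg adjusted over the 20704 genes tested, at 0.05. The code was tested on simulated data. DESeq2 1.42.0 was an alternative. CPM values use TMM-scaled library sizes. The members and the 32 gene lists (540 genes) were chosen with earlier results of these data known. Named genes were the 15 largest fitted changes in each direction (at least 20 CPM in the higher group, no overlap), for each list at most 4 called members by smallest p, members of the shoot, root-type callus and cytokinin lists, any of which could be named, 12 always-named genes and the 10 with the most CPM in each group. ESR2, LHCA4, LHCB4.2, VND6, VND7, DFR, LDOX, UF3GT, PAP1 and TT8 were chosen after their values were seen. Same-numbered libraries of SIM 27 °C and 0 h showed no pairing (correlations -0.0243, -0.0132 and 0.0193). No promoter table was given, so windows were read from the RefSeq genome TAIR10.1, whose gene models had the same start and end as the deposited table in 32.3% of 32835 genes and overlapped it in 100%. Python 3.11.15, pandas 2.3.3, scipy 1.17.1 and matplotlib 3.10.9 were used.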

Additional observations from a re-analysis of the deposited data

Results flagged for a closer look

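For 9 of 12 genes that were to be named whatever their values, the outcome on SIM differed between the culture temperatures in a direct test of SIM 27 °C over SIM 17 °C (edgeR, Benjamini-Hochberg adjusted). Over all genes tested, 20.7% were higher and 22.9% lower at 27 °C in that test, so a difference was common. Shoot genes were higher at 27 °C: the log2 difference was 1.46 for WUS (14.7 CPM at 27 °C, against 5.30 CPM at 17 °C; adjusted p = 2.72e-06), 2.70 for CUC1 (34.3 CPM, against 5.24 CPM; adjusted p = 2.80e-15) and 0.57 for CUC2 (71.6 CPM, against 48.3 CPM; adjusted p = 1.09e-06). STM averaged 6.88 CPM at 27 °C, against 0.0902 CPM at 17 °C, and its fitted difference of 5.92 depends on the prior count and is no bound (adjusted p = 1.06e-09). Callus genes of root type were lower at 27 °C: PLT1 averaged 0.304 CPM, against 6.67 CPM (difference -4.33, adjusted p = 8.72e-10). LBD29 and WOX5 had 1 to 3 counts over the 27 °C libraries, so their fitted differences of -4.77 (adjusted p = 2.20e-10) and -2.23 (adjusted p = 0.0283) also depend on the prior count. ARR5 and CHS were lower at 27 °C by smaller amounts, with differences of -0.36 (adjusted p = 1.78e-07) and -0.44 (adjusted p = 3.48e-07). Of the other 3, ESR1 differed by 0.20 (13.5 CPM at 27 °C, against 11.7 CPM at 17 °C) and did not pass the test (adjusted p = 0.399), PORA was near 0 at both temperatures (0.151 CPM at 27 °C, against 0.0788 CPM at 17 °C; adjusted p = 0.729), and CLV3 was not tested (1.98 CPM at 27 °C, against 0.408 CPM at 17 °C).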

How the results depend on the processing

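The count of genes called was 16231 and lay between 14537 and 17155 in the other settings tried, apart from 5468 when tested against a change of 1 log2 unit: it was 15385 with DESeq2, 17155 without a filter on low counts, 15826 with the 6 libraries alone, 14537 with library 2 as the only library at 0 h, and 16406 with the SIM 27 °C libraries taken as 1 sample, a setting added after seeing the data. Leaving out each library in turn gave 15705 to 15933 genes called, 3458 to 3624 higher and 3599 to 3715 lower by 1 log2 unit or more; 7941 to 8206 against SIM 17 °C, 9327 to 9385 against CIM 27 °C, 16033 to 16157 for CIM 27 °C against 0 h, and 89 to 98 passing changes. With the replicate block, though nothing showed that the numbers pair the samples, 16216 genes were called (3449 higher and 3613 lower by 1 log2 unit or more), 9018 against SIM 17 °C and 10262 against CIM 27 °C, and passing changes numbered 107. Passing changes numbered 332 with the wider interval and 62 with library 2 as the only library at 0 h. Of 205 named genes, 193 kept call and direction in all 14 settings and 12 lost or gained a call in at least 1. WOX12 turned to 0.59 (adjusted p = 0.746) with library 2 as the only library at 0 h; the cause was not tested. Of 64 list counts, 9 moved by over 1.5 times, mostly in lists with few called members. The fitted spread was at its lowest value for 63.4% of genes, so small changes pass the test, and genes with few counts in a group have bounds or wide intervals only.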
